A study of Mus musculus with 4 samples.

Results

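The Frizzled genes encode the cell-surface receptors of Wnt proteins. All genes named Fzd1 to Fzd10 were taken, 10 genes of the 47866 gene and feature names on the array, and each had at least 1 probe. They were chosen by name and not by their values, though earlier results of these data were known. They were followed in adipocyte progenitor cells, the fibroblast-like precursors of fat cells, which had been sorted by flow cytometry from subcutaneous fat and lysed directly, with no period in culture. The mice were 4-week-old FVB males, given no treatment. The 2 samples of one group were wild-type and the 2 of the other were labelled Adamts1 transgenic, and each sample was hybridised to 1 single-colour Agilent array. Adamts1 encodes a secreted metalloprotease that cleaves matrix proteoglycans. Which promoter drives the transgene, and in which cells, is not stated in the labels. Nor do they state that replicates were separate animals or pools, so p-values measure only the spread between these samples.

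A Frizzled protein holds a cysteine-rich domain outside the cell, which binds the Wnt, and a bundle of membrane-spanning helices that recruits Dishevelled inside it. With Lrp5 or Lrp6 as co-receptor the complex stabilises beta-catenin, and with Ror1, Ror2 or Ryk it can act through planar polarity or calcium routes. Wnt signalling through beta-catenin is known to hold back the conversion of fat-cell precursors into adipocytes. By sequence the receptors fall into subfamilies, Fzd1 with Fzd2 and Fzd7, Fzd5 with Fzd8, Fzd4 with Fzd9 and Fzd10, and Fzd3 with Fzd6, and the values are given in that order.

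The array measured each receptor with short probes, and 13 probes covered the 10 genes, with a pair each for Fzd2, Fzd5 and Fzd7. Relatives can be alike enough to matter here. Of the 78 pairs among the 13 probes, 1 aligned over at least 20 bases at more than 60% identity. It was the brighter Fzd2 probe (mm9 chr11:102467613-102467672, plus strand) and the dimmer Fzd7 probe (mm9 chr1:59541367-59541426, plus strand), which matched at 42 of 50 aligned bases, 84.0%. The bases at which they differ within the aligned stretch are in capitals.
Fzd2: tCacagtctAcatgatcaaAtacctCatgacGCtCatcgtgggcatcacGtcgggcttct
Fzd7: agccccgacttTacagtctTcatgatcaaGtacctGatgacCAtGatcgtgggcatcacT
The receptors with the smallest p, Fzd10 and Fzd4, had a single probe each, at mm9 chr5:129109798-129109857 (plus strand) and mm9 chr7:96557478-96557537 (plus strand). Their first 30 of 60 bases are shown, chosen after the values were seen, since the results turn most on these 2 probes, and neither aligned with another Frizzled probe by the same measure.
Fzd10: ttgactctctgaattgttaaacaaatgatt
Fzd4: acacacgtaaggtatccagtggatttctct
Exon and untranslated region annotation was not used here.

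Signals are given as normalised log2 signal, the log2 of the processed spot intensity minus the 75th percentile of its array, so that 0 is the level below which 75% of spots lie and 1 unit is a doubling. A probe's signal depends on its sequence, so levels are compared between samples and never between genes. The share of non-control spots well above background was 47.0% for wild-type replicate 1 and 55.5% to 57.0% for the other arrays. The lowest signal that counted as such was -3.60 on wild-type replicate 1 and -4.98 to -4.93 on the others. Replicate arrays correlated at 0.984 (wild-type) and 0.994 (transgenic) over 24518 tested features. All 11 progenitor markers, among them Dcn, Col3a1 and Cd34, were well above background on all 4 arrays. Adamts1 itself read 6.65 and 6.73 in wild-type samples and 6.77 and 6.82 in transgenic ones (difference 0.11 ± 0.093, SE; adjusted p = 0.573, limma), and no label says whether its probe matches the transgene, so it does not check the group names.

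No Frizzled gene passed the test. Of the 10 genes, 8 were well above background on all 4 arrays, Fzd9 was so only in the transgenic samples, and Fzd6 on no array. The 9 genes other than Fzd6 were tested with limma, and 0 were called at an adjusted p under 0.05, against 1.73% of all 24518 features (0.967% higher and 0.759% lower in the transgenic samples). At an unadjusted p under 0.05 there were 4 genes, Fzd10 and Fzd2 with lower and Fzd4 and Fzd1 with higher values in the transgenic samples, where 19.0% of all features reached that level. Fzd9 could enter the test only by being well above background in the transgenic samples, so the next counts are over the 8 genes above background on all arrays. The arrays of the groups did not overlap for 7 of the 8, where 53.1% of all features tested did not. Their differences had both signs, 3 positive and 5 negative, with a median of -0.23 against -0.016 over all features tested. An exact permutation test of 2 samples against 2 cannot go below p = 0.333, so only the fit across all features was used.

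**Figure D1:**
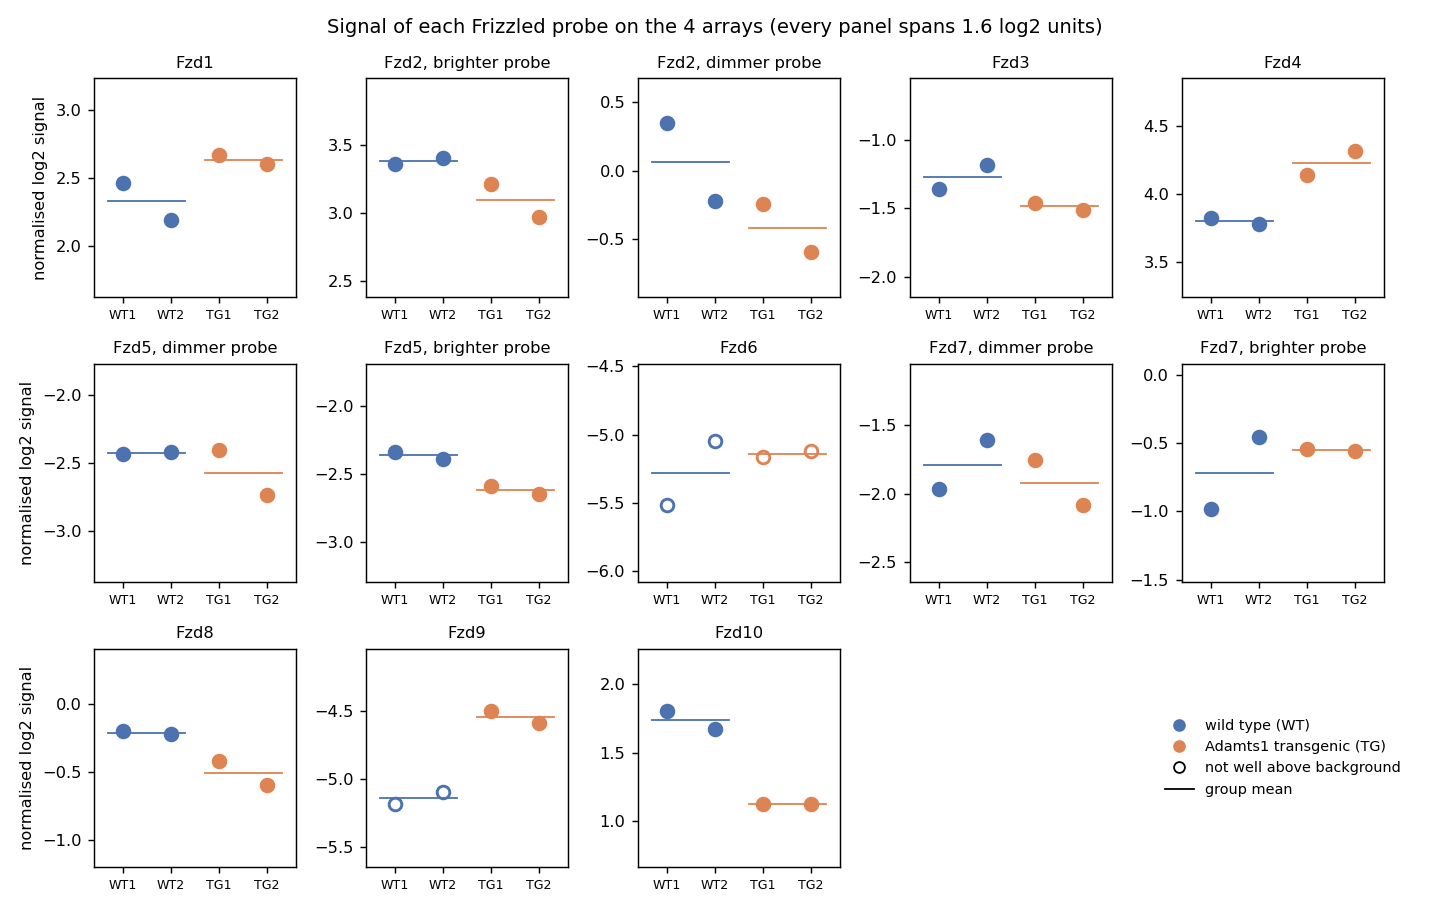
Normalised log2 signal (vertical axis, every panel spanning 1.6 units) of each of the 13 Frizzled probes on wild-type (WT, blue) and transgenic (TG, orange) arrays, with lines at the group means and open circles for a group in which the probe was not well above background. Fzd10 lies at 1.12 and 1.13 on the transgenic arrays, below both wild-type arrays, and Fzd4 at 4.14 and 4.32, above both.

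In the first subfamily Fzd1 and Fzd2 differed in opposite directions, and neither difference passed the test. Fzd1 read 2.46 and 2.19 in wild-type samples and 2.66 and 2.60 in transgenic ones. Both transgenic values lay above both wild-type values, and the wild-type samples were 0.27 apart. The difference was 0.31 ± 0.12 (SE, n = 2 per group), 1.24-fold higher with a 95% interval of 1.01 to 1.52-fold (limma, adjusted p = 0.252), and it was 0.17 without wild-type replicate 2.

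Fzd2 read 3.36 and 3.40 in the wild-type samples against 3.21 and 2.97 in the transgenic ones on its brighter probe, the one printed above. The groups did not overlap, with transgenic replicate 2 the lowest. Its difference was -0.29 ± 0.11 (SE), 1.22-fold lower with a 95% interval of 1.01 to 1.48-fold (limma, adjusted p = 0.249), and it was -0.17 without transgenic replicate 2. The dimmer Fzd2 probe (mm9 chr11:102469045-102469104) read 0.35 and -0.22 against -0.25 and -0.60, again lower in both transgenic samples than in either wild-type one. That probe's difference was -0.49 with no test of its own, and its wild-type samples were 0.57 apart, more than the difference.

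Fzd7, a receptor often used by stem and progenitor cells, gave no direction. Its brighter probe (mm9 chr1:59543192-59543251) read -0.98 and -0.45 in wild-type samples and -0.54 and -0.56 in transgenic ones. Both transgenic values fell between the wild-type values, and the difference was 0.16 ± 0.21 (SE; limma, adjusted p = 0.708). It was -0.10 without wild-type replicate 1 and 0.43 without wild-type replicate 2. The dimmer probe, the one that resembles the Fzd2 probe, read -1.97 and -1.61 against -1.75 and -2.08, a difference of -0.13. The probes of Fzd7 thus had differences of opposite sign, and both sets of groups overlapped. Whether Fzd2 RNA adds to the signal of that dimmer probe was not tested.

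Fzd5 and Fzd8, which both signal through beta-catenin, did not pass the test. Fzd8 (mm9 chr18:9214916-9214975) read -0.20 and -0.23 in wild-type samples and -0.42 and -0.59 in transgenic ones. The groups did not overlap, and the difference of -0.29 ± 0.14 (SE) was 1.23-fold lower, with a 95% interval that ran from 1.56-fold lower to 1.04-fold higher (limma, adjusted p = 0.321). The brighter probe of Fzd5 (mm9 chr1:64779479-64779538) read -2.33 and -2.39 against -2.59 and -2.64, a difference of -0.25 ± 0.20 (SE; limma, adjusted p = 0.531). Its samples lay within 0.06 of each other in each group and did not overlap between groups. The dimmer Fzd5 probe (mm9 chr1:64781972-64782030) read -2.43 and -2.42 against -2.41 and -2.74, so on it the groups overlapped. The Fzd5 difference was 0.020 without transgenic replicate 2 and -0.039 after quantile normalization of normexp-corrected values. Each fit took the probe that was brightest in it, and the 0.020 came from the probe called dimmer here. On transgenic replicate 1 the brighter probe still lay below both of its wild-type values.

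In the subfamily of Fzd4, Fzd9 and Fzd10, the differences of Fzd10 and Fzd4 had opposite signs and were the largest on each side among the 8 receptors above background on all arrays; neither passed the test. Fzd10 read 1.80 and 1.67 in wild-type samples and 1.12 and 1.13 in transgenic ones. The groups were separate, the wild-type samples were 0.13 apart and the transgenic samples 0.0066. Its difference was -0.62 ± 0.10 (SE, n = 2 per group), 1.53-fold lower with a 95% interval of 1.29 to 1.83-fold, and it missed the threshold at an adjusted p of 0.0591 (limma; unadjusted p = 0.00131). Among all features 15.2% differed by more than this in either direction. Over the 15 alternative settings the difference ran from -0.68 to -0.53. Over the 11 of them with all 4 arrays the adjusted p ran from 0.0422 to 0.153 (limma). Fzd10 passed the threshold with normexp background correction, where 556 of 24511 features were called. It also passed with no filter on dim probes, where 695 of 47819 were. With wild-type replicate 2 left out, which leaves 1 array in that group, the difference was -0.68.

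Fzd4 is the receptor of Norrin as well as of Wnts and is best known for its role in the growth of retinal vessels, with Tspan12 and Lrp5 as partners. It read 3.82 and 3.78 in wild-type samples and 4.14 and 4.32 in transgenic ones. Both transgenic values stood above both wild-type values by more than either group's own gap. The difference was 0.43 ± 0.097 (SE, n = 2 per group), 1.34-fold higher with a 95% interval of 1.13 to 1.59-fold (limma, adjusted p = 0.113), and it passed the threshold under none of the 15 alternatives, where the adjusted p ran from 0.0678 to 0.564. Its partners did not pass the test either. Tspan12 differed by 0.0078 (limma, adjusted p = 0.979) and Lrp5 by 0.26 (limma, adjusted p = 0.231), and Norrin's gene, Ndp, was not well above background on any array.

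Fzd4 is also a receptor of endothelial cells, so the endothelial list stands beside it. Of 12 endothelial markers 11 were tested and 0 were called, but 6 of the 11 passed the filter only through the transgenic samples. There they had to be well above background, not higher than in wild-type samples. Tie1, 1 of these, read -3.10 and -6.24 in wild-type samples and -3.76 and -3.72 in transgenic ones. The 5 above background on all arrays had a median difference of 0.74, with 3 positive. The summed linear signal of all 12, on the scale where 1 is the 75th percentile, was 22.5 and 17.9 in wild-type samples and 18.2 and 17.2 in transgenic ones. That sum rests mainly on Kdr and Tek, whose differences were -0.28 and -0.51, while Pecam1 differed by 0.74. Erg was not well above background on any array, and 2 of the 12 were so on neither wild-type array. The part of endothelial RNA in the Fzd4 difference was not tested.

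Fzd9 was near the detection limit. Its probe (mm9 chr5:135724815-135724874) read -5.18 and -5.09 in the wild-type samples, where it was not well above background, and -4.50 and -4.59 in the transgenic ones, where it was. The difference of the group means, -5.14 and -4.54, is 0.59 ± 0.33 (SE; limma, adjusted p = 0.389). No fold is given, because the transgenic mean did not exceed the bound for the wild-type arrays, the mean over both of the lowest signal that counted as well above background. Both transgenic values lay below the lowest signal that counted as well above background on wild-type replicate 1, -3.60. The gene entered the test only through the transgenic samples, and with normexp correction the difference was -0.14.

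Fzd3 and Fzd6 are the receptors best known for planar cell polarity, in axon tracts and in hair patterning. Fzd3 (mm9 chr14:65854084-65854142) read -1.36 and -1.18 in wild-type samples and -1.46 and -1.51 in transgenic ones. The groups did not overlap, the wild-type samples were 0.18 apart, and the difference was -0.21 ± 0.17 (SE; limma, adjusted p = 0.524). It was -0.12 without wild-type replicate 2 and -0.099 after quantile normalization of normexp-corrected values. The single Fzd6 probe (mm9 chr15:38869107-38869166) was not well above background on any array, with a raw signal of 1.02 to 1.06 times the local background. Fzd6 was therefore not tested, and a low level could not be told from none.

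**Figure D2:**
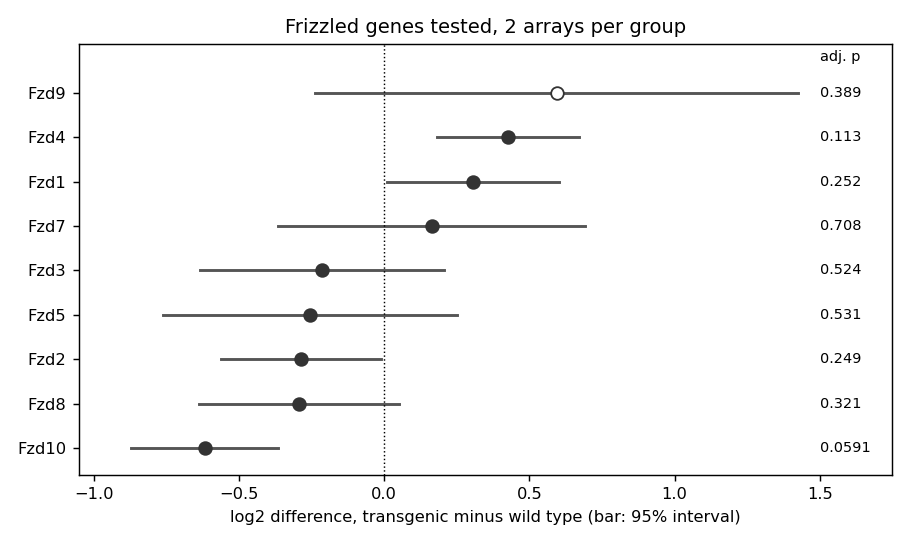
Log2 difference, transgenic minus wild-type (horizontal axis), for the 9 Frizzled genes tested, with bars for the 95% interval and the adjusted p from limma at the right; the open circle marks Fzd9, not well above background in the wild-type samples. The intervals of Fzd10 and Fzd2 lie below 0 and those of Fzd4 and Fzd1 above it, while no adjusted p is under 0.05.

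The genes that followed Fzd10 most closely over the 4 arrays, by the smallest Euclidean distance between values centred on each gene among 13644 named genes, were Prkca (distance 0.019), P2ry6 (0.035) and Klhl29 (0.035). Prkca encodes a protein kinase C that is activated by calcium and P2ry6 a receptor for extracellular nucleotides. Prkca read 3.74 and 3.596 in wild-type samples and 3.04 and 3.07 in transgenic ones, and it fell by 0.61 (limma, adjusted p = 0.0491), a call that was lost under 9 of 15 alternatives. P2ry6 differed by -0.63 (limma, adjusted p = 0.158) and Klhl29 by -0.61 (limma, adjusted p = 0.0647). With 4 arrays many genes lie close by, and the distances only describe likeness.

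**Figure D3:**
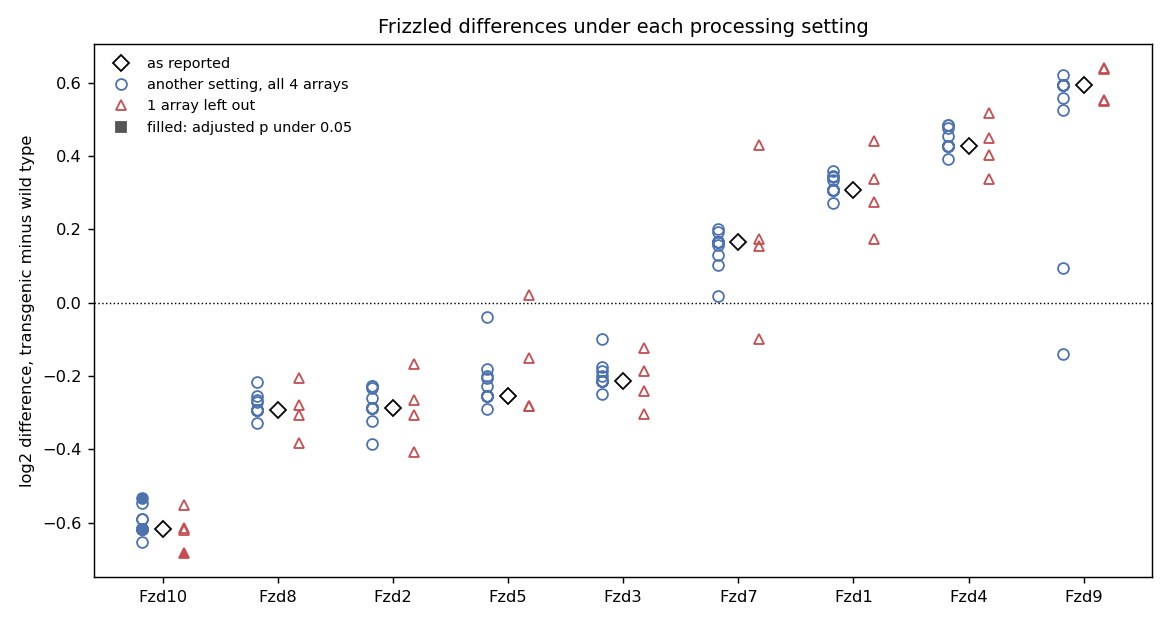
Log2 difference, transgenic minus wild-type (vertical axis), of each tested Frizzled gene as reported (diamond), under other settings with all 4 arrays (circles) and with 1 array left out (triangles); filled symbols have an adjusted p under 0.05. Fzd10 is the only gene with filled symbols, Fzd10, Fzd8, Fzd2 and Fzd3 stay below 0 and Fzd1 and Fzd4 above it, and Fzd5, Fzd7 and Fzd9 cross it under 1 setting each. The Fzd5 symbol above 0 comes from the other probe of the gene.

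The receptors were set beside the rest of the Wnt pathway, 124 other genes in lists by role, of which 93 were tested. Of these 1 was called higher and 6 lower in the transgenic samples, with a median of -0.15, beside 1.73% of all features called in both directions. The lower calls were Rspo1, Wnt9a, Wnt10b, Wnt2, Sfrp2 and Sfrp4, which encode secreted proteins. Lists here were chosen with results of these data known, and no difference between lists was tested.

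Among the co-receptors and other receptors listed beside Frizzled at the membrane, 0 of the 10 tested were called, with a median of -0.081. The list also holds Smo, a receptor of the Hedgehog pathway, which differed by -0.082 (limma, adjusted p = 0.625). Lrp6, the main co-receptor beside Lrp5, differed by -0.079 (limma, adjusted p = 0.646). Reck, which with Adgra2 presents Wnt7 ligands to Frizzled, read 2.22 and 2.05 against 1.52 and 1.55 (difference -0.60; limma, adjusted p = 0.0655). Ror1, a receptor kinase for Wnt5a, read -0.75 and -1.34 against -2.18 and -2.26 (difference -1.17; limma, adjusted p = 0.0974). Both were lower in each transgenic sample than in either wild-type sample and neither passed the test. Of all features tested, 53.1% had groups that did not overlap. Reck and Ror1 were named for the smallest p in their list.

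The machinery that sets how much Frizzled stays at the surface also gave no call, with 6 of 10 genes tested, of which 2 passed the filter only through the transgenic samples. The other 4 had a median of -0.26. Znrf3, a ubiquitin ligase that sends Frizzled to degradation, read -2.41 and -2.24 against -1.75 and -1.59 (difference 0.66; limma, adjusted p = 0.166). Lgr5, a receptor for R-spondins, which block that ligase, read -2.66 and -2.58 against -3.31 and -3.58 (difference -0.83; limma, adjusted p = 0.166). Rnf43, the ligase related to Znrf3, was not well above background on any array.

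Wnt ligands and R-spondins gave 4 of the 6 lower calls. Of 24 genes 12 were tested, 10 had a negative difference and the median was -0.83. Rspo1, an R-spondin, read 1.496 and 1.552 in wild-type samples and 0.072 and 0.051 in transgenic ones, and fell 2.76-fold (limma, adjusted p = 0.0162). Wnt10b, a ligand known to hold back fat-cell formation, read 1.79 and 1.67 against 0.46 and 0.72 and fell 2.20-fold (limma, adjusted p = 0.0315). Wnt9a fell 2.18-fold (limma, adjusted p = 0.0227) and Wnt2 fell 1.93-fold (limma, adjusted p = 0.0499). In all 4 genes each transgenic sample lay below both wild-type samples, and 53.1% of all features tested had groups that did not overlap. These genes were named because they were called, so their separation adds nothing to the calls. The calls were lost under 1 of 15 alternatives for Rspo1, 3 each for Wnt9a and Wnt10b and 9 for Wnt2.

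Secreted antagonists carried the other 2 lower calls, with 7 of 14 tested and a median of -0.48. Sfrp2 and Sfrp4 hold a cysteine-rich domain like that of Frizzled and bind Wnts outside the cell. Sfrp4 read 6.52 and 6.40 against 5.50 and 5.74 and fell 1.79-fold (limma, adjusted p = 0.0454), and Sfrp2 read 6.47 and 6.38 against 5.81 and 5.69 and fell 1.59-fold (limma, adjusted p = 0.0477). These calls were lost under 8 and 4 of 15 alternatives. Over the 15 the difference ran from -0.97 to -0.72 for Sfrp4 and from -0.74 to -0.56 for Sfrp2. The 6 lower calls rest on few arrays, and leaving out 1 array changed their number and the number over all features. Of the ligand secretion pair, Wls, which carries Wnts to the surface, differed by -0.29 (limma, adjusted p = 0.153) and Porcn, which acylates them, by -0.051 (limma, adjusted p = 0.858).

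Inside the cell, 0 of the 26 tested genes of beta-catenin signalling were called, and the 25 above background on all arrays had a median of -0.14. The smallest p belonged to Tle1 (difference -0.57; limma, adjusted p = 0.0729) and Tle3 (difference -0.54; limma, adjusted p = 0.0748), co-repressors of the pathway's transcription factors. The list of planar polarity and calcium genes had 0 calls among 23 tested and a median of -0.099, with the smallest p for Camk2d (difference -0.55; limma, adjusted p = 0.0968) and Vangl1 (difference -0.44; limma, adjusted p = 0.102). Of 18 genes that beta-catenin is known to induce, 11 were tested and 1 was called. That gene, Ccn4, a matricellular protein, read -2.07 and -2.09 against -0.90 and -0.996 and rose 2.19-fold (limma, adjusted p = 0.0477), a call lost under 8 of 15 alternatives. Cd44, with the next smallest p in that list, differed by 0.60 (limma, adjusted p = 0.0677). Axin2, the most used readout of the pathway, was well above background on 1 array of each group and was not tested, and Nkd1 differed by 0.13 (limma, adjusted p = 0.648). The 10 targets above background on all arrays had a median of 0.15.

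**Figure D4:**
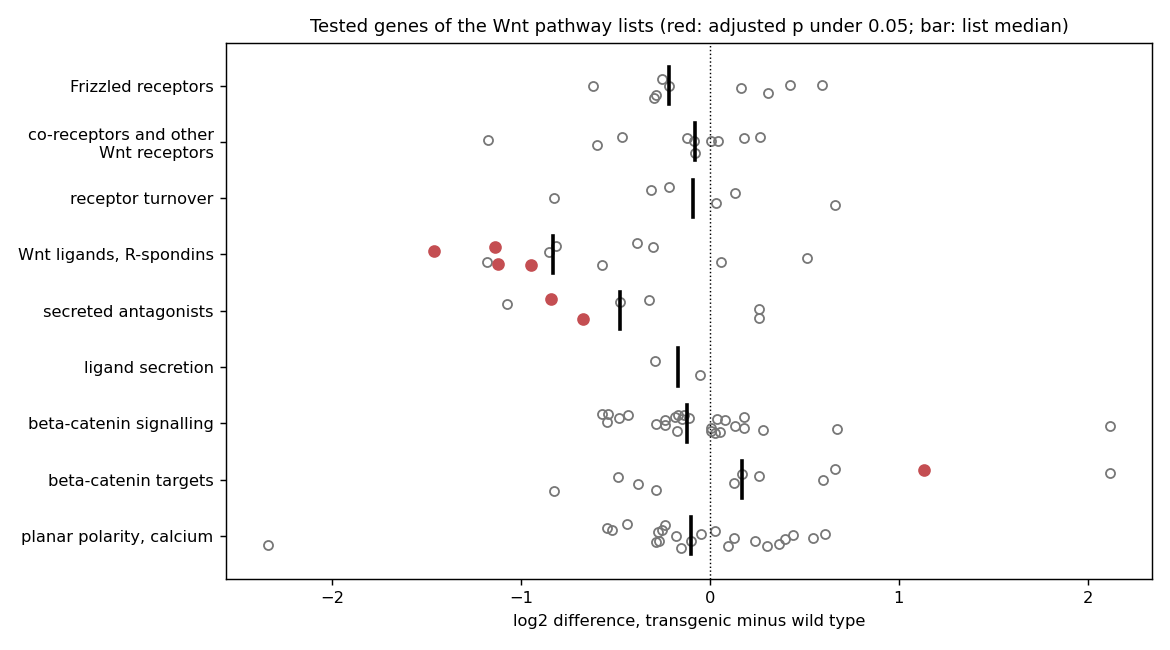
Log2 difference, transgenic minus wild-type (horizontal axis), of each tested gene in the Frizzled list and in 8 other Wnt lists (rows); red points have an adjusted p under 0.05 and bars mark the list median, and the vertical jitter carries no value. The 8 Frizzled genes above background on all arrays lie between -0.62 and 0.43, and the point at 0.59 is Fzd9, not well above background in the wild-type samples. No Frizzled point is red, and the red points of the ligands and antagonists are all below 0.

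Markers of other cells moved between the groups as well. In such samples fewer cells of a type and less RNA per cell cannot be told apart. Since a marker could pass the filter through the transgenic samples alone, medians are given over markers above background on all 4 arrays. Counts of calls stand beside 1.73% of all features called. Sums of linear signal are over every listed marker with a probe, tested or not. Macrophage markers gave 5 higher calls among 11 tested, 3 of them (Lyz2, Mrc1 and Ptprc, named after their values were seen) among the 5 that passed only through the transgenic samples, and the other 6 had a median of 0.76. The summed signal of the macrophage list was 58.2 and 57.4 in the wild-type and 63.6 and 61.8 in the transgenic samples. Most of it came from Itgam, which differed by -0.068, and Csf1r. Fcgr1 was not well above background on any array. Adipocyte markers gave 1 higher call among 8 tested, Fabp4, with a median of 1.90 over 6 and sums of 292 and 287 against 498 and 508. Those adipocyte sums rest mainly on Lpl, which differed by 0.59 (limma, adjusted p = 0.0707), and all 8 tested had positive differences. Lep was not well above background on any array. Mural cell markers gave 3 higher and 1 lower call among 9 tested, 1 of the higher ones through the transgenic samples only (median 0.62 over 8, sums 6.91 and 8.12 against 12.3 and 11.8). Lymphocyte markers gave 2 higher calls among 6 tested, 1 of them through the transgenic samples only (median 0.87 over 4, sums 6.19 and 10.9 against 6.13 and 5.16). Those sums rest mainly on Cd3e, which differed by -1.01 (limma, adjusted p = 0.162), while the other 5 tested had positive differences. Schwann cell markers gave 1 lower call among 5 tested (median 0.012 over 4, sums 75.8 and 61.0 against 50.3 and 48.4), with Cdh19 and Erbb3 not above background on any array. Across these lists the higher calls went from 11 to 6 when only features above background on all arrays were tested. Progenitor markers gave 1 lower call, Cd24a, among 11 tested (median -0.23, sums 3468 and 2798 against 2733 and 2752). The part of these cells in the Frizzled differences was not tested.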

How the data were processed

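The authors deposited scanner files of Agilent Feature Extraction 10.7.3.1 (array design 028005, mm9 coordinates for probes, per the file headers), whose processed intensity is background-subtracted and detrended. They also deposited a table of log2 values; its scale and centring are known only from its match to the scanner values (column medians 0.193, -0.021, -0.045 and 0.019), and it served as an alternative. Control and outlier spots were left out, spots of a probe averaged, and log2 processed intensities shifted by the 75th percentile of each array. Symbols were updated by accession through RefSeq (GRCm38.p6, names only) for 26582 of 55681 probes. The brightest probe on the arrays of a fit stood for a gene, tested if well above background on both arrays of a group. Groups were compared with limma 3.58.1 (R 4.3.3; lmFit, eBayes with an intensity trend, 2-sided, residual df 2) with Benjamini-Hochberg adjustment over 24518 features, called under 0.05; the fit was tested on simulated data. The median SE was 0.18, and the number of arrays limits the precision. Named were all Frizzled genes, in each other Wnt list the called genes and the 2 with the smallest p, and Axin2, Nkd1 and Lgr5. Also named were the 3 nearest to Fzd10 and, in cell lists, some of the 3 highest, of those called and of those below background. Lrp5, Lrp6, Tspan12, Ndp and Rnf43 were added afterwards as partners, and Smo as a listed gene of another pathway. Members and lists were chosen with earlier results of these data known. The alternatives covered scaling, background correction, filters, probe choice, outlier spots, the variance model, the replicate number and leaving out arrays. All arrays were on 1 slide.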

Additional observations from a re-analysis of the deposited data

How the results depend on the processing

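The 15 alternatives changed scaling, background correction, the values used, filters, the probe rule, outlier spots, the variance model, the replicate block or the arrays; those for the other Wnt and cell marker lists and genes were chosen after seeing the data. Frizzled genes called higher stayed at 0 under all of them. Frizzled genes called lower went from 0 to 1, Fzd10, with normexp correction (difference -0.53; limma, adjusted p = 0.0495) and with no filter on dim probes (-0.62, 0.0422). Without wild-type replicate 2 the Fzd10 difference was -0.68. A lone array left in a group was assumed to vary like the others. Fzd9 reversed to -0.14 with normexp correction and Nkd1 to -0.099 with the mean of a gene's probes. With an array left out, Fzd7 ranged from -0.10 (without wild-type replicate 1) to 0.43. Porcn ranged from -0.17 to 0.070 (without transgenic replicate 2). Both reversed only in the fit given in brackets. Fzd5 ranged from -0.28 to 0.020 (without transgenic replicate 2). That 0.020 came from its other probe, the brighter on the arrays kept, so the reported probe did not reverse there. Fzd9 could not be tested where all arrays had to be above background. Apart from this change of Fzd5 probe, the cause was not tested.

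Calls over all features, 423 as reported, became 695 with no filter, 0 without an intensity trend (4124 at an unadjusted p under 0.05, limma; 3 of them Frizzled genes), 774 with the replicate block and 90 to 3998 when an array was left out. Other Wnt genes called higher, 1 as reported, became 0 with a median shift, quantile normalization with or without normexp, the mean of a gene's probes or no trend, 2 with no filter or the replicate block, and 0 to 5 without an array. Those called lower, 6 as reported, became 3 with the mean of a gene's probes, 4 with quantile normalization with or without normexp and with the deposited value table, 9 with normexp, no filter or the replicate block, 0 without a trend, and 1 to 21 without an array. Cell markers called higher, 11 as reported, became 18 with no filter, 6 where all arrays had to be above background, 0 without a trend, 20 with the replicate block and 4 to 29 without an array; those called lower, 3 as reported, became 0 without a trend and 1 to 13 without an array. Of 330 values of 22 other named genes, 268 kept direction and call, 45 lost a call, 15 gained one and 2 reversed. Whether the replicate numbers paired the samples was not settled. Deviations of same-numbered arrays correlated at 0.0032, which with 2 arrays per group cannot decide it. The block called no Frizzled gene, and neither did the fit without it.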
